A study of Homo sapiens with 12 samples.

Results

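The negative regulators of NF-κB signaling were described here as a group of 10 genes, namely TNFAIP3, TNIP1, TNIP2, TNIP3, ZC3H12A, MIR146A, IRAK2, IRAK3, TRAF1 and BIRC3. Their members were the array probes that carry one of these gene names, and each of the 10 genes, of 25992 gene names on the array, had 1 probe with 1 spot among 34127 probes. Each stimulated array was set against the control array of the same slide. RNA was measured on 12 one-color arrays, 2 per line and treatment, in HK-2 and RPTEC/TERT1 cells, a pair of human proximal tubular cell (HPTC) lines. All cells were starved of serum and supplements for 24 h. For the next 24 h they received no ligand (control), 10 ng/mL IL-1β, or 500 nM of the SGLT2 inhibitor empagliflozin (Empa). Cells given both agents are not on these arrays. HK-2 was immortalized by papillomavirus genes and RPTEC/TERT1 by telomerase, so both are immortalized cultures and not a tissue. Each of the 4 slides holds the control, the IL-1β and the Empa array of one line and replicate number.

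IL-1β binds its receptor and recruits MYD88 and the IRAK kinases. These activate the ubiquitin ligase TRAF6, which builds the ubiquitin chains on which the kinase TAK1 and the IKK complex are switched on. IKK marks the IκB proteins for degradation and sets NF-κB free to enter the nucleus. Among the genes that NF-κB switches on are proteins that end the signal, and the genes described here were grouped as negative regulators of it. TNFAIP3 encodes A20, which removes and edits the ubiquitin chains, and TNIP1, TNIP2 and TNIP3 encode the ABIN proteins that bind ubiquitin and A20. ZC3H12A encodes Regnase-1, an RNase that degrades mRNAs of inflammatory cytokines. MIR146A gives rise to a microRNA that represses IRAK1 and TRAF6. IRAK3 (IRAK-M) holds back signaling at the receptor, whereas IRAK2 is also known to carry the signal forward. TRAF1 is an adaptor that binds TRAF2 and the cIAP proteins, and BIRC3 encodes the ubiquitin ligase cIAP2, which with TRAF2 and TRAF3 keeps the kinase NIK low.

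MIR146A is the one member whose product is not a protein, and its sequences are shown because the array did not measure the microRNA itself. The mature sequences below are from RefSeq (GRCh38.p14), with the seed (bases 2 to 8, with which a microRNA finds its targets) in capitals. Of 2545 mature microRNAs in the table used, 3 shared this seed, and hsa-miR-7153-5p is the one not shown.
hsa-miR-146a-5p: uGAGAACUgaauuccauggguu
hsa-miR-146b-5p: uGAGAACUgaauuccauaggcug
The first lies at chr5:160485372-160485393 on the plus strand. Its hairpin of 99 bases, chr5:160485352-160485450, lies within the span of the long noncoding RNA gene MIR3142HG, chr5:160468251-160487426. The array probe named MIR146A is annotated to the Ensembl transcript ENST00000517927 and to hg19 chr5:159914327-159914386, plus strand. Its deposited sequence follows.
MIR146A probe: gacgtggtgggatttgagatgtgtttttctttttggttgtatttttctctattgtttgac
No run longer than 7 bases of this probe of 60 bases occurred in the hairpin on either strand, so its signal is that of the long transcript and not of the mature microRNA.

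RefSeq promoter windows (GRCh38.p14), from 250 bases before to 50 bases after a start, were at hand for 9 of the members and for MIR3142HG. They are shown because most members that could be tested were upregulated with IL-1β. The κB consensus, the sequence that NF-κB binds, was searched on both strands. It was found in windows of 4 of the 9 members, TNFAIP3, TNIP1, TNIP3 and BIRC3, and in that of MIR3142HG. Of all 35116 windows searched, 5.91% held a match, and of the 27305 genes with a window 7.09% did. Each line gives 30 bases on the strand of the gene, and the capitals mark the match.
TNFAIP3, chr6:137867188-137867217, plus strand, matches 67 and 55 bases before the start: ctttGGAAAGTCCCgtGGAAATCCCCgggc
TNIP1, chr5:151081057-151081086, minus strand, match 42 bases before the start: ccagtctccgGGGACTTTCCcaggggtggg
BIRC3, chr11:102317275-102317304, plus strand, match 199 bases before the start: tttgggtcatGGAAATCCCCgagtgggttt
BIRC3, chr11:102317339-102317368, plus strand, match 135 bases before the start: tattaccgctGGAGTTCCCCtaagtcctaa
MIR3142HG, chr5:160468121-160468150, plus strand, match 120 bases before the start: ggatctagaaGGGACTTTCCagagagggtt
TNIP3 has 3 windows, of which 2 hold a match on both strands at once, 61 and 62 bases before their starts. No match was found in the windows of ZC3H12A, TNIP2, IRAK2, IRAK3 and TRAF1, which says only that these letters are not in them. A match is a feature of the sequence and not a measured site.

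Levels are given as multiples of the 75th percentile of the array's signals, which ranged from 295 to 735 signal units. The share of probes well above background ranged from 53.5% to 63.8% over the arrays. The probes of the members differ in how brightly they bind, so levels were not compared between genes. The line of an array was taken from the sample titles, while another label field names HK-2 for all 12 arrays. Control arrays were compared over 15329 probes, which are no independent replicates of each other. The control array of HK-2 replicate 1 had r = 0.984 to that of RPTEC/TERT1 replicate 2, and the control array of HK-2 replicate 2 had r = 0.973 to that of RPTEC/TERT1 replicate 1. Within a line label r was 0.880 (HK-2) and 0.875 (RPTEC/TERT1). The line labels are thus in doubt, and values are given by slide, always with HK-2 replicates 1 and 2 first, followed by RPTEC/TERT1 replicates 1 and 2. Of 15 markers of proximal tubule epithelium, 9 were well above background on all 12 arrays, among them SLC5A2, which encodes the target of Empa. The transporter SLC22A6 was so on none, the receptor CUBN on 1, and ANPEP, PAX2 and CDH1 on 6 each. The summed level of these 15 markers was 32.5 to 64.0 in control, 31.2 to 70.1 with IL-1β and 27.6 to 88.4 with Empa. With IL-1β, limma called 2 of the 10 markers tested lower (adjusted p under 0.05) and 0 higher. These were the receptor gene LRP2 (log2 change -2.43, adjusted p = 0.000114) and the phosphate transporter gene SLC34A1 (-1.25, adjusted p = 0.00593). SLC34A1 was well above background on only 4 of the 12 arrays, so its call is a description and no support for a fall. LRP2 and SLC34A1 were lower on all 4 slides, as were SLC5A2 (-0.65, adjusted p = 0.0605), GGT1 (-0.44, adjusted p = 0.0915) and 24.1% of all genes tested. CDH2 was higher on all 4 slides (0.17, adjusted p = 0.497), as were 15.6% of all genes tested. Of 8 leukocyte markers on the array, PTPRC and CD68 (2 markers) passed background on all arrays, and the summed level of the 8 was 0.503 to 3.24, 1.61 to 3.06 and 0.395 to 2.60 in the same order. Of 7 fibroblast markers 0 did so, though DCN passed background on 8 arrays and LUM on 6. The summed level of the 7 was 0.168 to 9.99, 0.211 to 12.1 and 0.0827 to 6.42. Of 5 endothelial markers 1 did so, with a summed level of 0.167 to 0.263, 0.167 to 0.297 and 0.151 to 0.416. The part of these markers in the results was not tested. In bulk RNA, a change in the share of cells that express a gene and a change per cell cannot be told apart.

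IL-1β upregulated 6 of the 8 members that could be tested on all 12 arrays, and 0 were downregulated. Over all 15718 genes tested, 12.5% passed the threshold (adjusted p under 0.05, limma with the slide as a block and Benjamini-Hochberg adjustment), 4.73% upward and 7.74% downward. Without adjustment, 27.9% of all genes and 7 of the 8 members had a p under 0.05, the seventh being IRAK3. Without the slide as a block, the fit rests on the line labels, which are in doubt. That fit called 2 members (MIR146A and ZC3H12A) and 0.0445% of all genes. With the slide as a block, the fitted change was 24.8-fold for MIR146A, 22.8-fold for ZC3H12A and 13-fold for BIRC3. It was 11.7-fold for IRAK2, 11.1-fold for TRAF1 and 3.02-fold for TNIP1. Their order depended on the processing: with the authors' normalized values the log2 change was 3.86 for ZC3H12A, 3.00 for BIRC3, 2.94 for MIR146A and 1.43 for TRAF1. The median log2 change of the 8 tested members was 3.51, against -0.10 for all genes tested. IRAK3 passed the filter on dim probes only through the IL-1β arrays, and TRAF1 only through the IL-1β and Empa arrays. The median, the unadjusted count and TRAF1's place among the 6 are thus descriptions and no support for a rise. Among genes well above background on all 12 arrays, limma called 5 of 6 members and 1725 of 12632 genes. Outside the 8 members tested on all 12 arrays, TNFAIP3 had a spot marked as an outlier on 1 array. It was fitted on the remaining 11 (12.9-fold). TNIP3 did not pass the filter, which asks for a signal well above background on both arrays of a line label and treatment. The IL-1β arrays on which TNIP3 was well above background carry different line labels. On 7 of the 10 members, every IL-1β array lay above every control array, which held for 3.86% of all genes tested. The exceptions were TNIP2, TNIP3 and IRAK3. Bounds included, these 7 and IRAK3 were higher with IL-1β than in the control array on all 4 slides, as were 15.6% of all genes. Both counts include TRAF1 and the marked spot of TNFAIP3, and the latter count includes IRAK3, so they are descriptions as well.

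**Figure D1:**
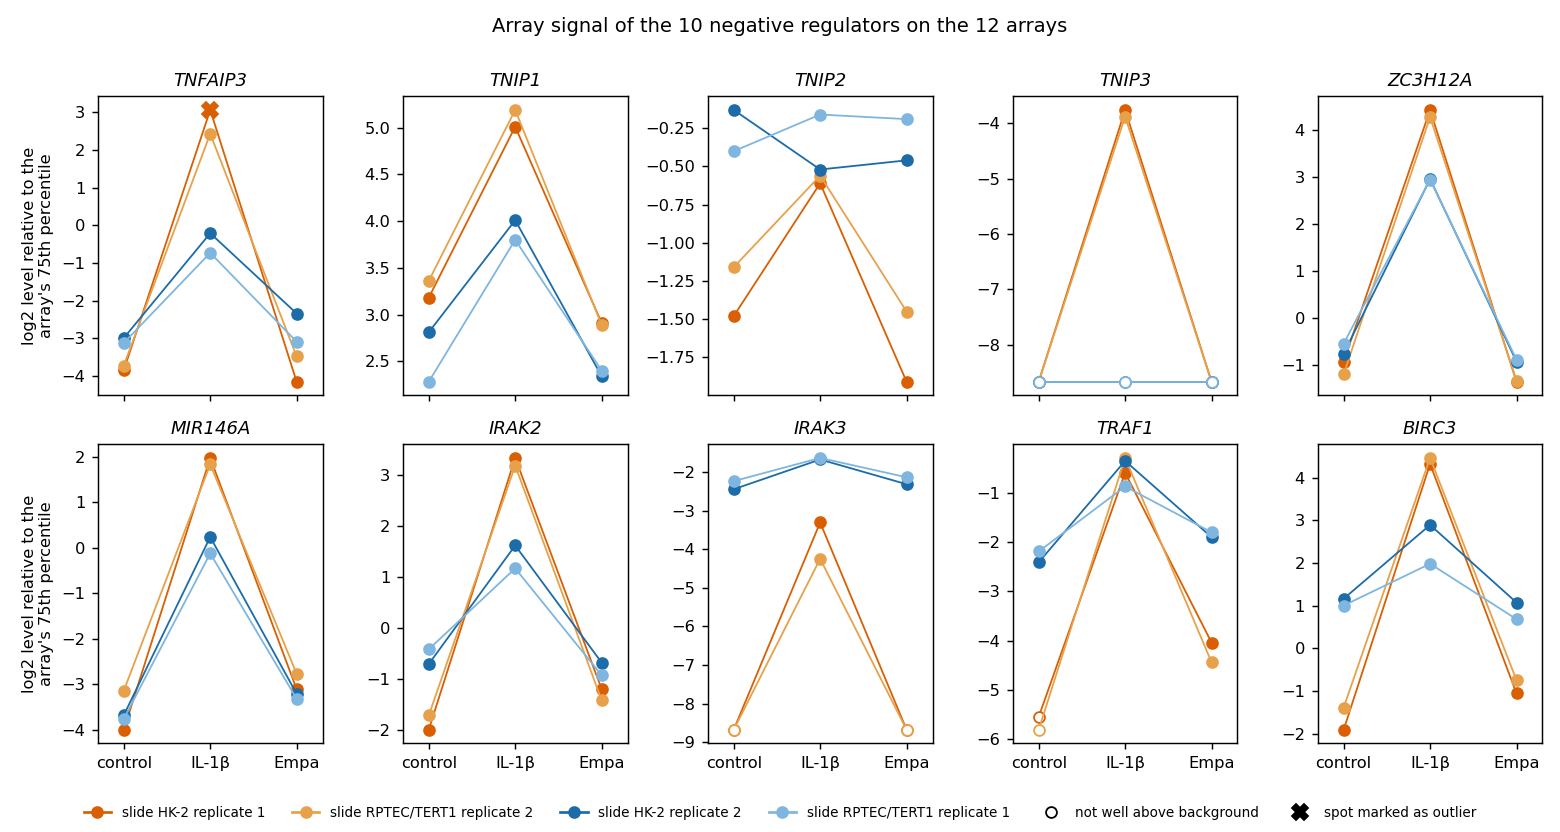
Level of each of the 10 genes on the 12 arrays (log2, relative to the array's 75th percentile, separate axes), with a line for each slide from control over IL-1β to Empa. Open circles are signals not well above background, the lowest of which lie at the floor of -8.67, and the cross is the marked TNFAIP3 spot. Except for TNIP2, TNIP3 and IRAK3, the 4 IL-1β arrays lie above all control arrays.

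A20 and its partners came first. In control cells, the level of TNFAIP3 was 0.07, 0.126, 0.115 and 0.0759. With IL-1β it was 8.31, 0.865, 0.601 and 5.39, and the first of these is the spot that the software marked for uneven signal. The IL-1β arrays thus lay above the control arrays on all slides, and much further on the slides of HK-2 replicate 1 and RPTEC/TERT1 replicate 2. The fold within the slide was 119 with the marked spot, and 6.86, 5.23 and 71.0 on the others. Fitted on the 11 arrays without that spot, IL-1β upregulated TNFAIP3 12.9-fold (log2 change 3.69 ± 0.70 SE, adjusted p = 0.0136). With the spot kept, the log2 change was 4.54 ± 0.81 (adjusted p = 0.0085). It was 2.49 ± 0.26 (adjusted p = 0.00386) when the IL-1β array of RPTEC/TERT1 replicate 2 was left out as well as the spot, and 2.82 ± 0.45 (adjusted p = 0.00654) with the authors' normalized values.

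TNIP1, which encodes ABIN-1, had the most even response. Its level was 9.04, 7.02, 4.84 and 10.3 in control cells and 32.2, 16.1, 13.9 and 36.4 with IL-1β, with no overlap. It rose 3.56-, 2.30-, 2.88- and 3.55-fold within the slides, which gave a log2 change of 1.60 ± 0.18 (adjusted p = 0.00141).

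TNIP2, which encodes ABIN-2, stood at 0.359, 0.917, 0.757 and 0.447 in control cells and at 0.654, 0.695, 0.894 and 0.679 with IL-1β. These arrays overlapped, and the fold was 1.82, 0.758, 1.18 and 1.52. The log2 change of 0.33 ± 0.25 did not pass the threshold (adjusted p = 0.425), and its 95% interval ran from -0.23 to 0.88.

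TNIP3 encodes ABIN-3 and was well above background on 2 of the 12 arrays, those of IL-1β on the slides of HK-2 replicate 1 and RPTEC/TERT1 replicate 2. There its level was 0.0739 and 0.0679. Against the control array of the slide it was at least 4.02-fold and at least 3.35-fold higher. Such a bound sets the signal against the lowest signal that counted as well above background on the control array, or against the control probe's own value if that is higher. On the other slides neither array was well above background and no fold can be given. In a fit of 25622 genes without the filter on dim probes, its log2 change was 2.43 ± 1.08 (adjusted p = 0.26).

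The RNase and the microRNA locus had the smallest adjusted p-values of the group. ZC3H12A stood at 0.528, 0.594, 0.687 and 0.438 in control cells. With IL-1β it stood at 21.6, 7.81, 7.72 and 19.5, so that the lowest IL-1β array was far above the highest control array. The fold was 40.9, 13.1, 11.2 and 44.5, and the log2 change was 4.51 ± 0.37 (adjusted p = 0.000328).

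The MIR146A transcript rose from 0.0623, 0.0778, 0.0736 and 0.113 in control cells to 3.94, 1.18, 0.919 and 3.58 with IL-1β. The control levels were dim but well above background on all slides. The fold was 63.2, 15.2, 12.5 and 31.5, and the log2 change was 4.63 ± 0.35 (adjusted p = 0.00023), or 2.94 ± 0.23 (adjusted p = 0.000417) with the authors' normalized values. By size, it ranked 30 among the 15718 genes tested and ZC3H12A ranked 31.

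Of the IRAK kinases, IRAK2 had a level of 0.249, 0.609, 0.75 and 0.303 in control cells and of 10.1, 3.08, 2.24 and 9.10 with IL-1β. The groups did not overlap, and the fold was 40.5, 5.05, 2.99 and 30.1. The log2 change was 3.54 ± 0.57 (adjusted p = 0.00558).

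IRAK3, the inhibitory member of the family, was at the floor and not well above background in control cells on the slides of HK-2 replicate 1 and RPTEC/TERT1 replicate 2. It stood at 0.183 (HK-2 replicate 2) and 0.212 (RPTEC/TERT1 replicate 1) on the others. With IL-1β its level was 0.101, 0.312, 0.321 and 0.0524, so it was well above background on all slides. The fold was at least 5.49, 1.71, 1.52 and at least 2.58. The fitted log2 change of 2.79 ± 0.83 missed the threshold (adjusted p = 0.0588), and its size rests on the floor of 1 signal unit. With a floor of 5 signal units it was 1.63 ± 0.41 (adjusted p = 0.0303), and a log2 change of 0.40 (adjusted p = 0.0217) was found with the authors' normalized values.

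TRAF1 was not well above background in control cells on these same slides and stood at 0.188 (HK-2 replicate 2) and 0.219 (RPTEC/TERT1 replicate 1) on the others. With IL-1β its levels lay close together, at 0.664, 0.784, 0.549 and 0.820. The fold was at least 31.1, 4.17, 2.51 and at least 40.5, and the log2 change was 3.47 ± 0.63 (adjusted p = 0.0093). In the authors' table the log2 change was 1.43 (adjusted p = 0.0123).

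BIRC3 had a level of 0.266, 2.23, 2.00 and 0.382 in control cells and of 19.9, 7.43, 3.94 and 22.1 with IL-1β. The fold was 74.9, 3.33, 1.97 and 57.8, the widest spread between slides of the members measured on all 12 arrays without a marked spot. The log2 change was 3.70 ± 0.83 (adjusted p = 0.0225). This call was lost when any one of 4 arrays was left out, the control or the IL-1β array of HK-2 replicate 1 or of RPTEC/TERT1 replicate 2 (log2 change 2.95 to 3.28, adjusted p = 0.0617 to 0.0895).

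**Figure D2:**
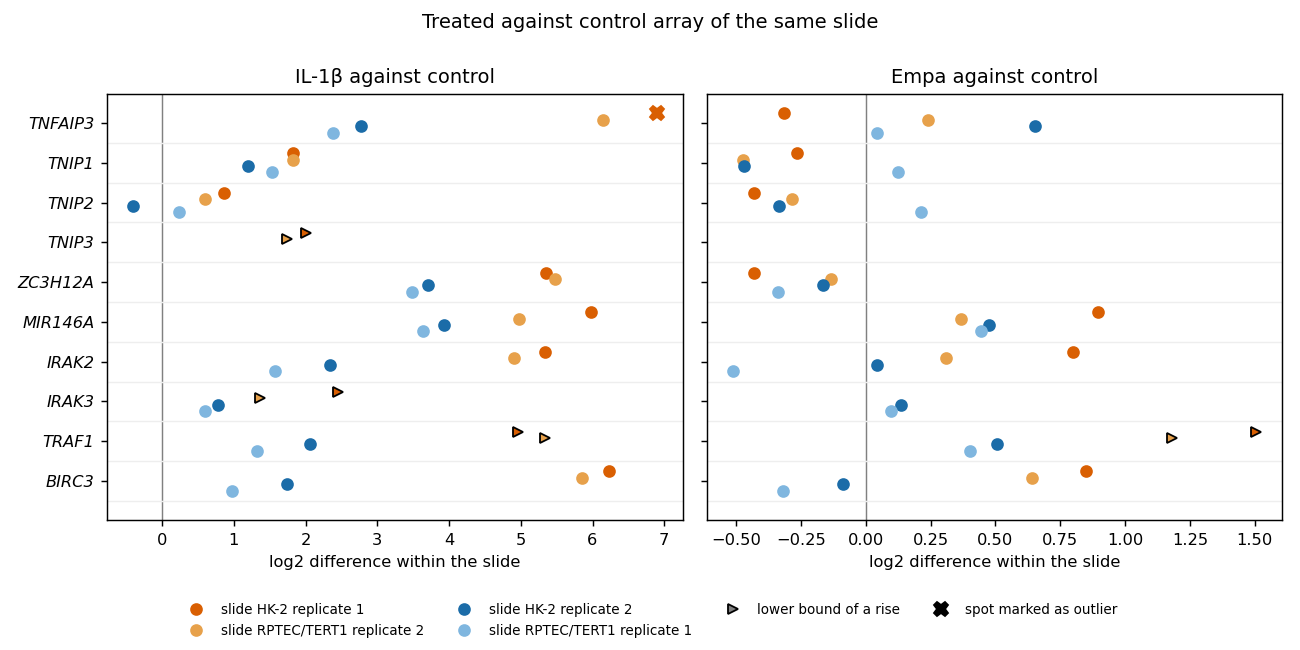
Log2 difference of the IL-1β array (left) and the Empa array (right) from the control array of the same slide, with a point for each gene and slide and different x axes. Triangles are lower bounds where the control array was not well above background, and the cross is the marked TNFAIP3 spot. With IL-1β the points of RPTEC/TERT1 replicate 2 and HK-2 replicate 1 lie to the right of the others, and with Empa TNFAIP3, TNIP1, TNIP2, IRAK2 and BIRC3 have points on both sides of 0.

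The slides thus differed more in the size of the response than in its direction. In 9 of the 9 members that could be compared, the IL-1β fold or its bound was larger on both the slides of HK-2 replicate 1 and RPTEC/TERT1 replicate 2 than on either of the others. This order held for 28.4% of all genes tested, and for 60.3% of those called upward. In 7 of these 9 members the control level was lower on both slides (31.7% of all genes), with TNIP1 and MIR146A as the exceptions. With IL-1β the level was higher on both in 7 of the 10 members (40.4% of all genes), lower on both in TNIP2 and IRAK3, and mixed in TRAF1. The arrays of these slides were alike across labels, as were those of HK-2 replicate 2 and RPTEC/TERT1 replicate 1. No test was made between slides grouped in this way. As labelled, the lines were compared by the difference of the IL-1β effect (RPTEC/TERT1 minus HK-2). At the threshold 0 of 15718 genes and 0 of 8 members were called by limma, and without adjustment 280 genes (1.78%) and 0 members. The log2 difference was -0.64 for MIR146A, with a 95% interval from -2.46 to 1.17, and -0.05 for ZC3H12A, from -2.04 to 1.94. For BIRC3 it was -0.57, from -4.95 to 3.82. Intervals of this width leave room for large differences. With the line labels in doubt, the comparison as labelled cannot show whether the lines respond alike.

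Empa changed no member past the threshold. Among all 15718 genes, limma called 1 (0.00636%), DHRS2, which rose by 2.73 on the log2 scale and was named after its values were seen, and 1894 genes (12%) had an unadjusted p under 0.05. Of the 8 members tested, limma called 0 with adjustment and 0 without. The methods' t-test called 0 members after Benjamini-Hochberg adjustment and 1, MIR146A, without it, where it called 624 of 15717 genes. The median log2 change of the 8 members was 0.11, against -0.02 for all genes. All control and Empa groups overlapped.

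MIR146A was higher with Empa than in the control array on all 4 slides, at 0.116, 0.108, 0.0999 and 0.146. The fold was 1.86, 1.39, 1.36 and 1.29, and the log2 difference of 0.54 ± 0.35 did not pass (adjusted p = 0.536). Of all genes tested, 12.9% were higher on all 4 slides. TRAF1 was also higher on all 4, at 0.0606, 0.267, 0.288 and 0.0461, by at least 2.84-, 1.42-, 1.32- and at least 2.27-fold. Its log2 difference was 0.95 ± 0.63 (adjusted p = 0.544), and 0.18 in the authors' table. ZC3H12A was lower with Empa on all 4 slides, at 0.392, 0.529, 0.543 and 0.399, as were 13.7% of all genes. Its log2 difference was -0.27 ± 0.37 (adjusted p = 0.766).

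The other members had no common direction over the slides with Empa, or could not be measured. TNFAIP3 stood at 0.0562, 0.197, 0.118 and 0.0894, with folds between 0.803 and 1.57. TNIP1, at 7.51, 5.07, 5.29 and 7.39, was lower on 3 of 4 slides, with a log2 difference of -0.27 ± 0.18 (adjusted p = 0.553). TNIP2 was lower on the same 3 slides, with folds between 0.741 and 1.16. IRAK2 ranged from 0.701- to 1.74-fold and BIRC3 from 0.802- to 1.80-fold, both lowest on the slide of RPTEC/TERT1 replicate 1 and highest on that of HK-2 replicate 1. IRAK3 was measured on the slides of HK-2 replicate 2 (1.10-fold) and RPTEC/TERT1 replicate 1 (1.07-fold). TNIP3 was not well above background on any control or Empa array. The 95% intervals of the fitted log2 differences reached from -0.69 to 0.15 for TNIP1 and from -1.60 to 2.14 for BIRC3. A change of more than 2-fold was within the interval for all fitted members but TNIP1 and TNIP2. The difference of the Empa effect between the lines as labelled was called for 0 of 8 members (0 also unadjusted) and 0 genes (161 unadjusted, 1.02%). With the line labels in doubt, this cannot show whether the lines respond alike to Empa.

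**Figure D3:**
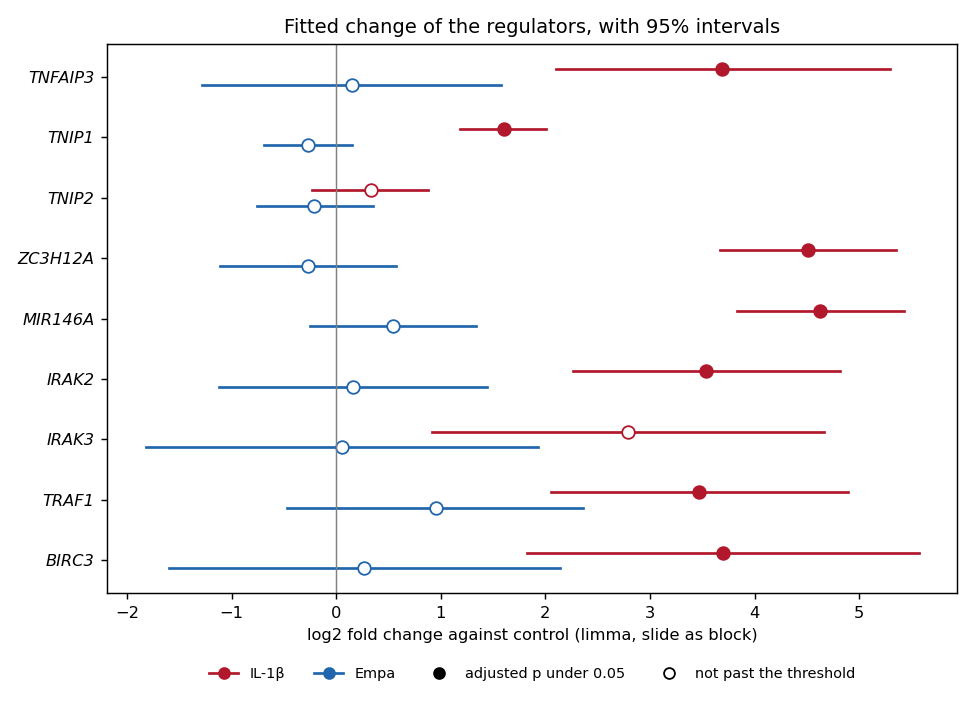
Fitted log2 fold change against control with its 95% interval, for IL-1β (red) and Empa (blue), over the 4 slides. Filled points passed an adjusted p of 0.05, TNFAIP3 is from the fit on 11 arrays, and TNIP3 did not pass the filter on dim probes. The IL-1β estimates of 7 genes are filled and above 0, and all Empa intervals include 0.

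Other genes of the pathway were counted by lists of their roles. These calls are by limma with the slide as a block. With IL-1β it called 4.73% of all genes tested upward and 7.74% downward, and 27.9% had an unadjusted p under 0.05. Without the block, in groups by line label, no gene of these lists was called. The methods' t-test called 0 of each list after adjustment. Of the IκB proteins, which hold NF-κB in the cytoplasm or, as BCL3 and the product of NFKBIZ, act in the nucleus, 4 of 6 rose with IL-1β. The log2 change was 3.70 ± 0.44 for NFKBIA (IκBα, adjusted p = 0.00152), 2.77 ± 0.50 for NFKBIZ, 1.51 ± 0.41 for NFKBID and 0.81 ± 0.22 for BCL3. NFKBIB and NFKBIE did not pass. The list's median was 1.16. For the signaling chain of the IL-1 receptor, 2 of 17 tested genes rose and 2 fell, with a median of 0.01. The receptor IL1R1 rose by 1.25 ± 0.26 and its accessory chain IL1RAP by 1.56 ± 0.18 (log2), while SIGIRR, an inhibitory receptor of the family, changed by -0.93 ± 0.14 and the ubiquitin ligase gene PELI3 by -0.62 ± 0.16. The targets that miR-146a is known for did not pass the threshold, with log2 changes of 0.26 ± 0.18 for IRAK1 (adjusted p = 0.384) and 0.01 ± 0.14 for TRAF6 (adjusted p = 0.978).

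Among the genes around TRAF1 and BIRC3, TRAF3 rose by 1.89 ± 0.29 and MAP3K14, which encodes NIK, changed by -0.96 ± 0.20 (log2), so 1 of 6 rose and 1 fell. BIRC2, which encodes cIAP1, had a log2 change of 0.61 ± 0.19 (adjusted p = 0.0671). Of 7 tested relatives of ZC3H12A in mRNA decay, 1 rose, ZC3H12C, which encodes Regnase-3, by 2.37 ± 0.26. Of the partners of A20 and other deubiquitinases, 0 of 8 were called by limma (2 unadjusted) and 0 by the methods' t-test after adjustment (1 without), at a median of -0.05. The 2 with an unadjusted limma p under 0.05 went in opposite directions. They were OTULIN (0.55 ± 0.18, adjusted p = 0.0733) and N4BP1 (-0.48 ± 0.21, adjusted p = 0.172). CYLD, a deubiquitinase of the same pathway, had a log2 change of 0.08 ± 0.15. Of the 6 genes of LUBAC and IKK, which build linear ubiquitin chains and phosphorylate IκB, 0 were called by limma (1 unadjusted) and 0 by the t-test after adjustment (1 without). With Empa, limma called 0 genes of any of these lists. At an unadjusted p under 0.05 there were 1 A20 partner or deubiquitinase, 2 genes of the receptor chain and 1 of LUBAC and IKK. These lists had 8, 17 and 6 genes tested, and over all genes tested the share was 12%.

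**Figure D4:**
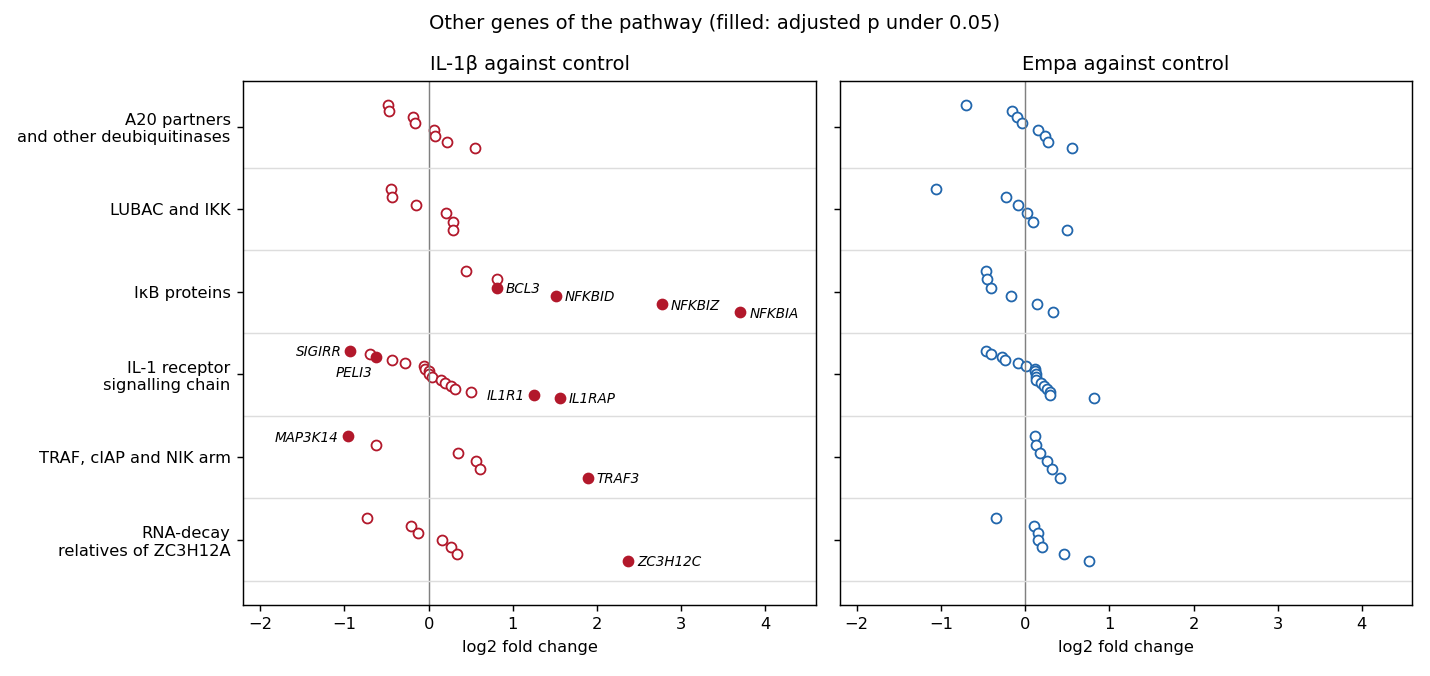
Fitted log2 fold change of the other pathway genes in 6 lists, with a point for each gene, for IL-1β (left) and Empa (right). Filled and named points passed an adjusted p of 0.05. With IL-1β the IκB proteins lie to the right of 0 and most genes of the other lists close to 0, and with Empa no point is filled.

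The genes whose pattern was most like that of TNFAIP3 were found by the Pearson correlation of log2 values centred on each slide, over the 12 arrays, among 12632 genes well above background on all of them. The arrays share 4 slides and the marked spot was included, so r is a description. The first were NFKB1 (r = 0.994), the gene of the NF-κB subunit p50 and its precursor, the metal transporter SLC39A14 (0.992), the receptor CD40 (0.992), DERL2 (0.989) and the transcript ENST00000453177 (0.988). IL-1β changed NFKB1 by 2.11, SLC39A14 by 2.55 and CD40 by 2.98 on the log2 scale, each past the threshold. Of the members, IRAK2 ranked 13 (r = 0.986) and BIRC3 ranked 27 (r = 0.982). ZC3H12A ranked 94, MIR146A 111, TNIP1 249 and TNIP2 980. The log2 change of DERL2 did not pass (0.49, adjusted p = 0.0758). The ranks moved without the marked spot: on 11 arrays NFKB1 ranked 5, SLC39A14 4, CD40 9, DERL2 12 and ENST00000453177 ranked 3. IRAK2 then ranked 22, BIRC3 50, ZC3H12A 58, MIR146A 114, TNIP1 189 and TNIP2 1737.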

How the data were processed

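RNA of 12 cultures was hybridized to one-color Agilent 4x44K v2 arrays. Per the file headers, the deposited intensity values were background-subtracted and detrended by Agilent Feature Extraction 9.5.3.1, and were not normalized between arrays. A second table deposited by the authors holds log2 values, named as quantile-normalized, whose medians per array ran from 6.65 to 8.31. It was used as an alternative, and what made the slides differ is not given in the sources used here.

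Control spots (1377 of 44495) and outlier spots (1.06% to 1.61%) were left out. Signals were floored at 1 signal unit after scaling by each array's 75th percentile and then log2-transformed. Signals at or below 0 made up 11.5% to 16.2% of an array, so log2 changes of dim probes depend on this floor. A probe had to be well above background on the 2 arrays of at least 1 group of line and treatment, and the brightest such probe stood for its gene (15718 genes). Slide and treatment effects were fitted to the 12 arrays by limma 3.58.1 (R 4.3.3), with 6 residual degrees of freedom. Benjamini-Hochberg adjustment ran over all genes, with a threshold of 0.05. TNFAIP3 was added to this table on the 11 arrays with a value. The difference between the lines came from a fit with separate treatment effects for each line (4 residual degrees of freedom).

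The titles give groups and replicate numbers. The arrays of one line and number lay on one slide, which is the block. The deviations from the group means correlated between arrays of one slide (r from 0.592 to 0.906). With 2 arrays per group both slides of a line give the same r, and exchanged line labels could also give such values. The slides of a replicate number shared a scan. The study calls its replicates biological, and the number of arrays limits the precision.

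The members and all gene lists were chosen with earlier results of these data known. The genes named were the members, the genes of each list past the threshold with IL-1β (at most 6) and the 5 genes most like TNFAIP3. IRAK1, TRAF6, BIRC2, CYLD, OTULIN, N4BP1, NFKBIB, NFKBIE, GGT1, CDH2 and DHRS2 were added after their values were seen. Alternatives are given in the closing section. "The methods' t-test" is the unpaired test that the study states for real-time PCR and ELISA, run on 4 treated against 4 control arrays. Probe positions are those of the array annotation (hg19), and promoter and microRNA sequences are from RefSeq (GRCh38.p14).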

Additional observations from a re-analysis of the deposited data

How the results depend on the processing

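The IL-1β difference of each of the 9 members fitted kept its direction under all alternatives run for it. With the replicate block left out, the 6 groups of line and treatment rest on the line labels, which are in doubt. In that fit 7 genes were called for IL-1β (5 higher and 2 lower), among them the members MIR146A and ZC3H12A. So 2 of 8 members remained called, and 0 genes were called for Empa. With the block and separate effects for each line, 855 genes and 0 for Empa were called, and TNFAIP3 (adjusted p = 0.0575) and BIRC3 (0.0694) missed the threshold. With the authors' normalized values, 2051 genes and 8 of 9 members were called for IL-1β, IRAK3 and TNFAIP3 among them, and without the block, an alternative chosen after seeing the data, 3 genes (CCL20, PIM2 and ZC3H12A, so 1 member). The methods' t-test called 42 genes and 1 member (ZC3H12A) after adjustment, and 2 genes for Empa (SPEF2 and TOR1AIP2). Without adjustment it called 624 genes and 1 member (MIR146A) for Empa. The arrays labelled HK-2 alone gave 34 genes and 2 members (MIR146A and ZC3H12A) for IL-1β and 3 genes for Empa (C10orf113, CDRT15 and RAG2). Those labelled RPTEC/TERT1 alone, and each scan alone, gave 0 genes and 0 members for IL-1β and 0 genes for Empa, and these fits have few arrays. At an unadjusted p under 0.05 there were 7 of 9 members and 2236 of 15904 genes (RPTEC/TERT1), 7 of 8 and 1393 of 15824 (scan 1), and 8 of 9 and 2431 of 15817 (scan 2). For Empa, 0 genes were called with normexp, without the filter on dim probes, with the filter on all 12 arrays, with every probe tested and with a floor of 5 signal units.

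With an array or a slide left out, 447 to 2955 genes and 3 to 7 members were called for IL-1β and 0 to 1 gene for Empa. Among single arrays, the count moved by over 1.5 times without the control arrays of HK-2 replicate 1 (789), HK-2 replicate 2 (1035), RPTEC/TERT1 replicate 1 (1272) and RPTEC/TERT1 replicate 2 (798), the IL-1β arrays of RPTEC/TERT1 replicate 2 (810) and HK-2 replicate 1 (1044), and the Empa array of HK-2 replicate 1 (2955). The 3 members were left without the slide of RPTEC/TERT1 replicate 2, where IRAK2 (adjusted p = 0.0543), TRAF1 (0.0665) and BIRC3 (0.148) missed the threshold. Without the slide of HK-2 replicate 1, TRAF1 (0.0661) and BIRC3 (0.107) missed it. TNFAIP3 missed it without the control array of RPTEC/TERT1 replicate 2 (0.0562), and IRAK3 passed it without the IL-1β array of HK-2 replicate 2 (0.0323) or of RPTEC/TERT1 replicate 1 (0.0255). Under all alternatives, BIRC3 was lost in 16 of 33 and ZC3H12A in 3 of 33.

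The Empa differences of some members turned sign. IRAK2 was at -0.01 in the authors' table, with and without the block, and at -0.10 on the arrays labelled RPTEC/TERT1, and TNFAIP3 was at -0.14 in scan 1. With an array or slide left out, the log2 difference with Empa ran from -0.25 to 0.60 for IRAK2, from -0.36 to 0.51 for IRAK3, from -0.25 to 0.82 for BIRC3 and from -0.28 to 0.54 for TNFAIP3. The cause was not tested. In no alternative did a line difference of a member, as labelled, pass the threshold, and these comparisons rest on line labels that are in doubt. The dim control signals of IRAK3, TRAF1 and TNIP3 limit the size of their folds.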
